A study of Homo sapiens with 14 samples.

Results

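The genes of the NRF2 antioxidant response described here, measured in RNA from IMR90 human lung fibroblasts, are NFE2L2, which encodes NRF2, its inhibitor KEAP1, and the NRF2 targets HMOX1, NQO1, GCLM, GCLC, TXNRD1, SRXN1 and OSGIN1. They are listed by name, 9 of the 54628 gene symbols counted, and the rule that lists them uses no measured value. All 9 passed the filter on low counts. IMR90 is an established line of primary lung fibroblasts. The labels name the isolates I79 and I83 at passage 5 without tying them to libraries. The 14 libraries fell into 6 labelled groups. WT (2 libraries) were untreated cells, and siHMGB2 (2) were untreated cells in which HMGB2 was knocked down by siRNA. ICM (4) were cells made senescent with 10 µM inflachromene, a small molecule that binds HMGB1 and HMGB2, for up to 6 days. The groups siSRRM2, siBANF1 and siCTCF (2 each) are labelled with the same inflachromene treatment plus a knockdown of SRRM2, BANF1 or CTCF. ICM 3 and 4 and the siCTCF libraries are titled in another form than the other 10, and their cell line field reads IMR91 to IMR94 where the titles read IMR90, so they were taken as a second set. ICM 1-2 and ICM 3-4 are therefore given apart, which makes 7 groups of 2 libraries. No source says whether libraries of a group came from separate cultures, so the spread between them may be technical.

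NRF2 is a transcription factor that is held at a low level by KEAP1, an adaptor that hands it to a CUL3 ubiquitin ligase for degradation. When reactive cysteines of KEAP1 are modified by electrophiles or oxidants, NRF2 escapes degradation, enters the nucleus, pairs with small MAF proteins and binds antioxidant response elements, while BACH1 competes for many of the same sites. The pathway is controlled largely at the level of NRF2 protein, so the mRNA of NFE2L2 need not follow NRF2 activity. Its targets break down heme, make glutathione, reduce thioredoxin and supply NADPH.

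The antioxidant response element has the core TGACNNNGC, a run of 9 bases with 3 free positions, and it was searched on both strands in the RefSeq windows (GRCh38.p14) that reach from 250 bases before to 50 bases after each annotated start. The windows of GCLM, TXNRD1 and KEAP1 hold such a core, and the matches are printed. NRF2 is known to act through this core, but whether it acts at these matches was not tested. Capitals mark the match. A match on the other strand stands as the reverse complement, so GCTTAGTCA reads TGACTAAGC there.
GCLM, chr1:93909446-93909474, minus strand: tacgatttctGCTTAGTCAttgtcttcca
TXNRD1, chr12:104215670-104215698, plus strand: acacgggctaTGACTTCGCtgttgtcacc
TXNRD1, chr12:104286920-104286948, plus strand, a later start: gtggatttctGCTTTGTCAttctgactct
KEAP1, chr19:10502807-10502835, minus strand: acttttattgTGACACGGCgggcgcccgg
KEAP1, chr19:10502784-10502812, minus strand: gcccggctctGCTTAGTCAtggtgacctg

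GCLM and KEAP1 carried the same 9 bases, at positions -34 to -26 in GCLM and -31 to -23 in KEAP1, counted from -1 as the base before the start. These starts are unlike. Both KEAP1 matches belong to a later start, whose window (chr19:10502722-10503021) lies inside the KEAP1 span that ends at 10503356. The GCLM window (chr1:93909381-93909680) reaches past the upstream end of its gene at 93909430. In GENCODE v29, however, an exon of the same gene overlaps the printed GCLM stretch. The same holds for both KEAP1 stretches and for that at the later TXNRD1 start. The core was present in 3 of the 8 genes with a window (37.5%), in 14 of 33 other genes of the pathway (42.4%), and in 16.1% of 27305 genes. No window was matched for HMOX1. A window without the core says only that these letters are not within those 300 bases.

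By GRCh38.p14 coordinates NFE2L2 lies at chr2:177230303-177264727, KEAP1 at chr19:10486125-10503356, HMOX1 at chr22:35381096-35394207, NQO1 at chr16:69709401-69726560, GCLM at chr1:93885199-93909430, GCLC at chr6:53497341-53545101, TXNRD1 at chr12:104215779-104350307, SRXN1 at chr20:646615-653200 and OSGIN1 at chr16:83953240-83966332. Reads of a gene cannot be told apart from those of a gene that shares its exons when the strand setting is not known. In GENCODE v29 the exons of KEAP1, HMOX1, GCLM and TXNRD1 overlap no other gene. SRXN1 shares 85% of its exon bases with the same-strand gene AL121758.1, so its counts are uncertain. The shared portion is 20.9% in NFE2L2, 17.7% in NQO1, 13.9% in OSGIN1 and 6.2% in GCLC.

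The libraries held 22336161 to 58257456 gene counts, and the smallest count of any of the 9 genes in a library was 282 reads (OSGIN1 in siBANF1 1). HMGB2 stood at 11.5% and 12.6% of WT in the siHMGB2 libraries, SRRM2 at 32% and 68% of the ICM library of the same number in those labelled siSRRM2, and CTCF at 75.4% and 25% in siCTCF 1 and 2. In the libraries labelled siBANF1, BANF1 stood at 125% and 112% of ICM and SRRM2 at 24.8% and 15.1%, which goes against the label. The names of the deposited files also give siSRRM2 and siBANF1 the other way round than the sample labels do. In the libraries labelled siSRRM2, however, BANF1 was at 34.24 and 33.34 CPM (counts scaled to a common total of gene counts), against 13.52 and 32.72 CPM in ICM 1 and 2. BANF1 was thus not below the ICM library of the same number under either label, while SRRM2 was below it under both. Which knockdown either group carries is therefore not settled, and their values stand under the sample labels. Replicates were not equally close. The median chi-square per gene between 2 libraries, 0.455 from counting alone, was 50.4 for ICM 1 with ICM 2 and 49.6 for siBANF1 1 with siBANF1 2, against 3.32 between ICM 2 and siBANF1 2 and 2.7 between ICM 3 and siCTCF 1. It was 1.11 between siSRRM2 1 and 2, above counting noise, and these were kept as 2 replicates. Small structural RNAs made up 3.12% to 5.98% of the counts of ICM 1-2, siSRRM2 and siBANF1, against at most 0.00831% elsewhere. The share of mitochondrial mRNA was at least 2.7% in every untreated library and at most 0.754% in every library with the inflachromene label. The 10 fibroblast markers summed to 19300 to 25912 CPM in WT, 4155 to 12674 in ICM 1-2 and 2052 to 4229 in ICM 3-4. The 5 epithelial markers summed to at most 0.729 CPM and the 3 endothelial ones to at most 1.72 CPM in any library. Of 3 leukocyte markers, CD68, which is not limited to leukocytes, made up nearly all of a sum of 39.2 to 104 CPM.

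In WT, the levels per kb of exon ranked NQO1, TXNRD1, SRXN1, NFE2L2, KEAP1, HMOX1, GCLM, GCLC and OSGIN1 from high to low. NQO1, a quinone reductase, stood at 281 ± 12.6 CPM per kb (SD, n = 2) and TXNRD1, the cytosolic thioredoxin reductase, at 137 ± 1.63. KEAP1 (22.5 ± 0.778) and HMOX1 (22.1 ± 0.753) did not differ beyond their spread. OSGIN1, an oxidative stress-induced growth inhibitor, was lowest at 6.89 ± 0.233. In ICM 3-4 the order was another one, with HMOX1 at the top at 1420 ± 369 CPM per kb, then NQO1 at 642 ± 1.09, and NFE2L2 at the bottom at 22.6 ± 8.46.

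Over the 14 libraries the 9 genes varied to very different extents. The highest library over the lowest was 150-fold for OSGIN1 and 116-fold for HMOX1, 14.9-fold for SRXN1, 11-fold for GCLM and 8.36-fold for NQO1. It was 6.64-fold for GCLC, 4.54-fold for KEAP1, 3.7-fold for TXNRD1 and 3.31-fold for NFE2L2. For each gene but NFE2L2, the 4 libraries of ICM 3-4 and siCTCF were the 4 highest of the 14. The share of all genes with this pattern was not counted. In 42.6% of genes tested, both ICM 3-4 libraries lay above both WT libraries.

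**Figure D1:**
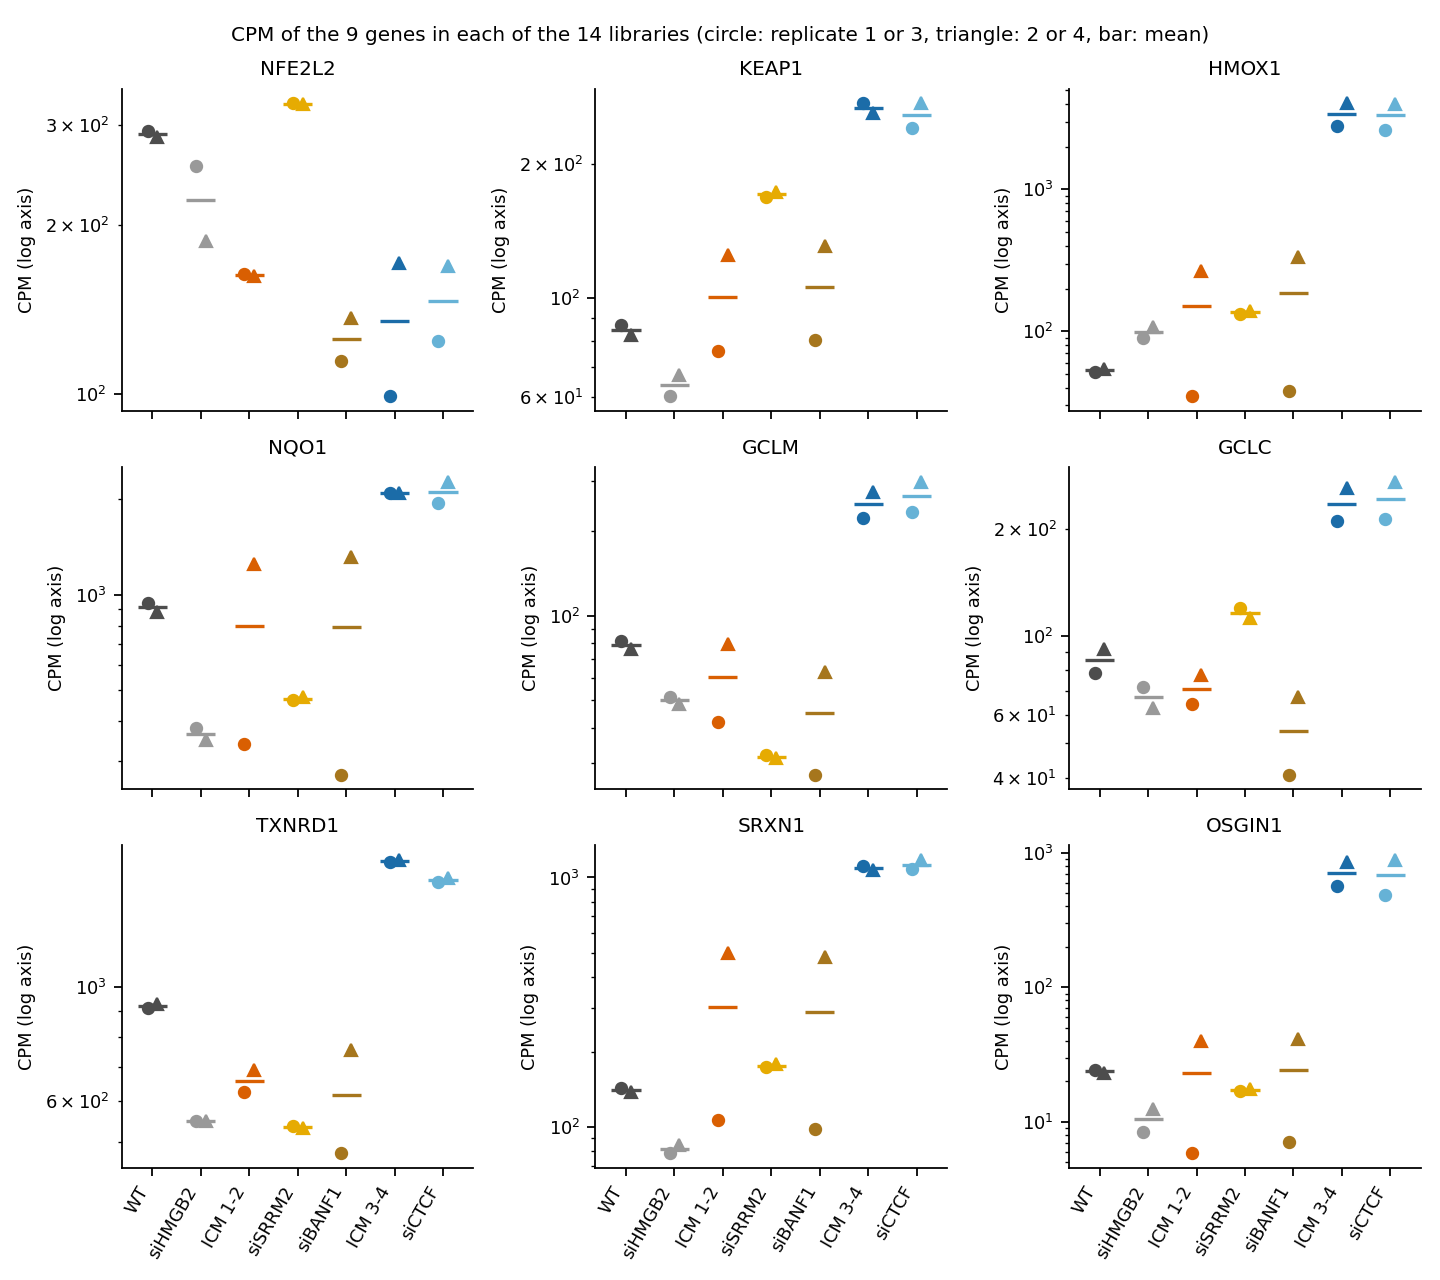
Each panel plots 1 gene, with the CPM of every library on a log axis against the 7 groups (circle, replicate 1 or 3; triangle, replicate 2 or 4; bar, mean of 2 libraries). In 8 panels the ICM 3-4 and siCTCF points lie above all others, and in the NFE2L2 panel the siSRRM2 and WT points do; the wide gaps between circle and triangle in ICM 1-2 and siBANF1 for HMOX1, NQO1, SRXN1 and OSGIN1 are visible.

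The comparison of ICM with WT asks what inflachromene-induced senescence does to these genes. In ICM 3-4, the mRNAs of KEAP1 and of 5 of the 7 targets rose over WT and that of NFE2L2 fell. With edgeR's quasi-likelihood test on all 14 libraries and a Benjamini-Hochberg adjusted p under 0.05, 6 of the 9 genes were called higher, where 14.3% of the 19126 genes tested were, and 1 was called lower, where 16.0% were. All 7 targets and KEAP1 lay above both WT libraries, as did 42.6% of all genes tested, and NFE2L2 below both, as did 33.3%. The share of mitochondrial mRNA, at least 3.11% in WT and at most 0.252% in ICM 3-4, moved with this comparison, and its part in the results was not tested. The median log2 fold change of the 9 genes was 1.42, against -0.02 over all genes tested. Because both WT libraries are of the first set, an effect of the treatment and one of the set cannot be told apart.

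NFE2L2 had 293.7 and 286.6 CPM in the WT libraries, against 99.35 and 170.9 CPM in ICM 3 and 4. Both ICM libraries lay below both WT libraries, and they differed from each other by 1.72-fold. The log2 fold change was -1.36 ± 0.27 (SE, n = 2 against 2; edgeR adjusted p = 0.00574). KEAP1 went the other way, from 86.8 and 82.66 CPM to 273.1 and 260.3 CPM, without overlap (log2 fold change 1.42 ± 0.26; edgeR adjusted p = 0.00414).

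HMOX1 encodes heme oxygenase 1, which opens the heme ring to biliverdin, iron and carbon monoxide. Its WT libraries had 51.9 and 54.46 CPM, against 2792 and 4048 CPM in ICM 3 and 4. The means differed by 64.3-fold, the widest gap among the 9 genes (log2 fold change 5.76 ± 1.05; edgeR adjusted p = 0.00399). OSGIN1 was next, with 24.4 and 23.26 CPM in the WT libraries against 562.2 and 856.1 CPM in ICM 3 and 4, a 29.8-fold difference of means (4.64 ± 0.90; edgeR adjusted p = 0.00536).

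The glutathione branch rose by less. GCLC is the catalytic and GCLM the modifier subunit of glutamate-cysteine ligase, which makes the first and limiting step of glutathione synthesis. GCLM had 81.34 and 76.02 CPM in the WT libraries against 222.5 and 275.9 CPM in ICM 3 and 4 (log2 fold change 1.42 ± 0.34; edgeR adjusted p = 0.0132). GCLC had 78.72 and 92.1 CPM in the WT libraries against 209.7 and 260 CPM in ICM 3 and 4 (1.21 ± 0.24; edgeR adjusted p = 0.00549). Both subunits were thus higher in each ICM library of the second set than in either WT library.

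Among the thiol and quinone enzymes, SRXN1, the sulfiredoxin that repairs overoxidized peroxiredoxins, had 143.9 and 138.4 CPM in the WT libraries against 1115 and 1067 CPM in ICM 3 and 4 (2.71 ± 0.69; edgeR adjusted p = 0.0164). TXNRD1 had 912.2 and 927.7 CPM in the WT libraries against 1747 and 1763 CPM in ICM 3 and 4, a narrow pair on each side, yet it was not called in the fit to all libraries (0.69 ± 0.25; edgeR adjusted p = 0.0538). NQO1, with 943.7 and 885.7 CPM in the WT libraries against 2093 and 2088 CPM in ICM 3 and 4, was not called either (0.95 ± 0.61; edgeR adjusted p = 0.254). The shared spread of that fit includes ICM 1-2 and siBANF1, whose replicates lay far apart. Fitted with the 4 compared libraries only, all 9 genes were called, 8 higher (27.8% of genes in that fit) and 1 lower (27.3%). In the fit to all libraries, 4 genes were called without WT 1 (HMOX1, KEAP1, NFE2L2, OSGIN1) and 4 without WT 2 (GCLC, HMOX1, KEAP1, NFE2L2). The call of SRXN1 was lost without ICM 3, and those of SRXN1 and GCLM without ICM 4. Scaling by total counts split the calls over all genes into 3448 higher and 2449 lower, against 2732 and 3065 here, and left all 9 directions as they were.

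**Figure D2:**
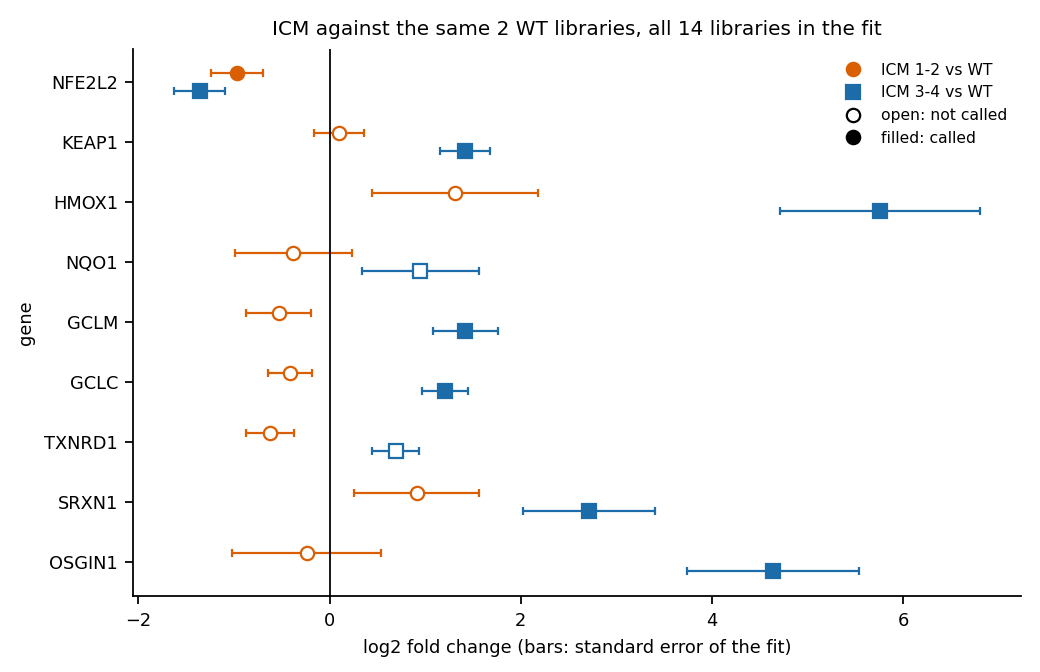
The x axis gives the log2 fold change from WT of each gene, with its standard error, in ICM 1-2 (orange) and ICM 3-4 (blue), both set against the same 2 WT libraries; filled symbols were called. The blue symbols span -1.36 (NFE2L2) to 5.76 (HMOX1), while among the orange ones only NFE2L2 at -0.97 is filled.

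In ICM 1-2, only NFE2L2 passed the test. It was at 163.7 and 162 CPM, below both WT libraries, where 25.0% of genes tested were (log2 fold change -0.97 ± 0.27; edgeR adjusted p = 0.0377), so that 1 of 9 genes was called lower, where 6.87% of all genes were, and none higher, where 6.63% were. The call was lost when any 1 of WT 1, WT 2, ICM 1 and ICM 2 was left out, and with the 4 compared libraries only (edgeR adjusted p = 0.185, range over the alternatives 0.00822 to 0.457). The median log2 fold change of the 9 genes was -0.38, against 0.10 over all genes. Small structural RNAs made up 5.98% and 3.12% of the counts in ICM 1 and 2, against at most 0.00831% in WT. An effect of the treatment and one of this difference between libraries cannot be told apart here.

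Most of the other genes differed between ICM 1 and ICM 2. For HMOX1, ICM 1 had 34.96 CPM but ICM 2 had 265 CPM, a 7.58-fold gap, with WT in between. OSGIN1 (5.881 and 40.05 CPM, 6.81-fold) and NQO1 (340.2 and 1251 CPM, 3.68-fold) lay likewise on either side of WT. SRXN1 was at 106.3 and 496.3 CPM, a 4.67-fold gap. ICM 1 was the lower library in each case. The gap was smaller for GCLM (1.88-fold), KEAP1 (1.64-fold), GCLC (1.2-fold) and TXNRD1 (1.1-fold) and the NFE2L2 values of ICM 2 and ICM 1 had a ratio of 0.99. The fold changes of HMOX1 (1.31 ± 0.87; edgeR adjusted p = 0.337) and SRXN1 (0.91 ± 0.65; edgeR adjusted p = 0.372) rest on ICM 2: without it they were -0.69 and -0.50. The thioredoxin reductase TXNRD1, at 624.7 and 688.5 CPM, lay below both WT libraries but was not called (-0.62 ± 0.25; edgeR adjusted p = 0.114). ICM 1 also had 16.35% of its reads in no annotated feature and ICM 2 had 4.73%, and the part of that in the gap between them was not tested.

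**Figure D3:**
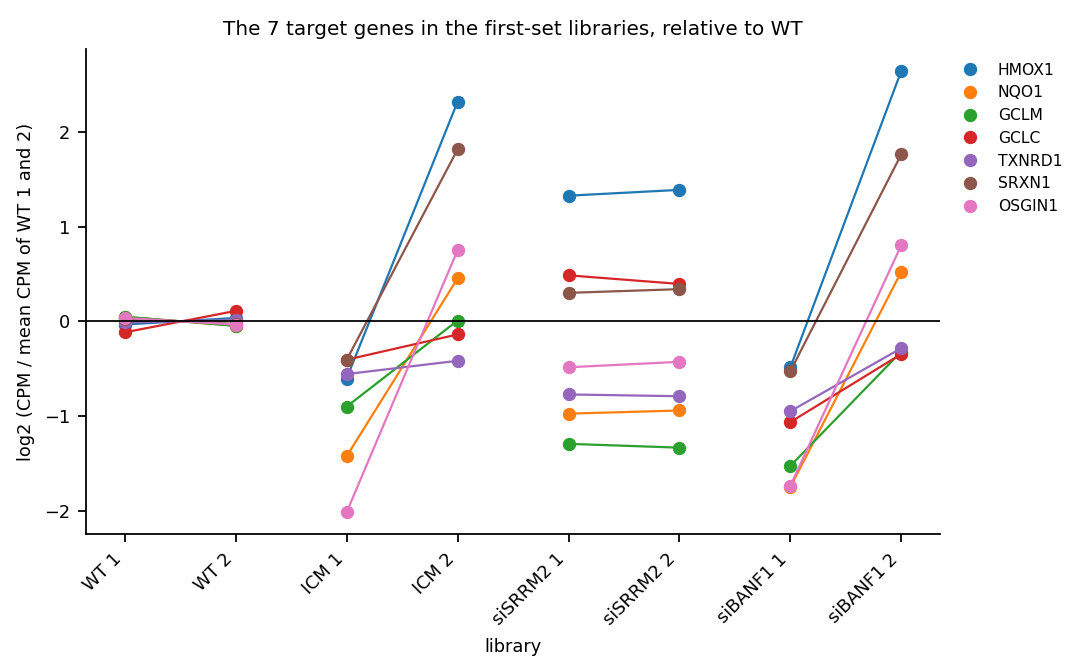
The y axis gives log2 of the CPM of each of the 7 targets over the mean CPM of the WT libraries, and the x axis the libraries WT, ICM 1-2, siSRRM2 and siBANF1, with a line joining the libraries of a group. In ICM 1-2 and in siBANF1 all 7 targets are higher in the library numbered 2, with the widest gap for HMOX1 (7.58-fold and 8.77-fold), while the siSRRM2 libraries are level with each other.

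Set directly against ICM 1-2, ICM 3-4 were higher in 6 of the 9 genes, where 8.53% of all genes were called higher, and lower in none, where 11.0% were. Both ICM 3-4 libraries lay above both ICM 1-2 libraries in 8 of the 9 genes and in 29.0% of genes tested. Since both carry the same treatment label, this tests the difference between the 2 sets of ICM libraries. The log2 difference was 4.88 ± 0.91 for OSGIN1 (edgeR adjusted p = 0.00623) and 4.45 ± 0.99 for HMOX1 (edgeR adjusted p = 0.0126). GCLM (1.95), GCLC (1.62), KEAP1 (1.32) and TXNRD1 (1.31) were called too. SRXN1 (1.80 ± 0.67; edgeR adjusted p = 0.0804) and NQO1 (1.33 ± 0.62; edgeR adjusted p = 0.149) were higher in both libraries but not called, and NFE2L2 overlapped (-0.39 ± 0.26). None of the 9 was called with the 4 compared libraries only, where 7 of 9 had an unadjusted p under 0.05 and the log2 differences of OSGIN1 and HMOX1 were 4.87 and 4.44; DESeq2 called 7. In the fit to all libraries the call of HMOX1 was lost without ICM 1, and that of KEAP1 without ICM 1 or ICM 3. The levels of ICM 1-2 here are means over 2 unlike libraries.

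The libraries labelled siSRRM2 were close to each other in every gene (0.939 to 1.04 between replicates). Against ICM 1-2 none of the 9 genes was called with edgeR, where 0.0993% of genes were called higher and 0.0784% lower. Of the 9 genes, 4 had an unadjusted p under 0.05, and DESeq2 called 1, NFE2L2. NFE2L2 was at 328.4 and 326.7 CPM, the highest of all 14 libraries and above both ICM libraries at 163.7 and 162 CPM (log2 fold change 1.00 ± 0.27; edgeR adjusted p = 0.188). KEAP1, at 168.2 and 173.3 CPM, also lay above ICM 1 and 2 at 76.08 and 125.1 CPM (0.78 ± 0.26), as did GCLC at 119.5 and 112.2 CPM over 64.42 and 77.53 CPM (0.71 ± 0.23). GCLM lay below, at 32.06 and 31.18 CPM against 42.09 and 79.06 CPM (-0.92 ± 0.34). The subunits of glutamate-cysteine ligase thus lay on opposite sides of ICM 1-2, though neither difference passed the test. TXNRD1, at 538.2 and 531.2 CPM, also lay below both. Thus 3 of the 9 genes lay above both ICM libraries and 2 below both, where 20.5% and 21.0% of genes tested did. HMOX1, at 133.3 and 139.1 CPM, NQO1, SRXN1 and OSGIN1 fell between ICM 1 and ICM 2.

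The libraries labelled siBANF1 also differed from each other. HMOX1 was at 37.99 and 333 CPM (8.77-fold), OSGIN1 at 7.151 and 41.66 CPM (5.83-fold), SRXN1 at 97.98 and 479.5 CPM (4.89-fold) and NQO1 at 271.8 and 1316 CPM (4.84-fold). TXNRD1, at 476.1 and 755.5 CPM, differed by 1.59-fold. Their first library also had the higher share of reads in no annotated feature, 18.44% against 5.16%. None of the 9 genes was called against ICM 1-2, as was none of all genes (0%, with 591 genes at an unadjusted p under 0.05, none of them among the 9, and 24 genes called by DESeq2, none among the 9). The log2 fold changes ran from -0.40 to 0.33. NFE2L2, at 114.6 and 136.4 CPM, was the only 1 of the 9 whose libraries did not overlap with ICM 1-2 (-0.35 ± 0.26), below it as were 8.22% of genes tested, and GCLC, at 40.83 and 67.2 CPM, overlapped (-0.37 ± 0.23). Overlap takes no account of library number. Against the ICM library of the same number, NFE2L2, GCLM, GCLC and SRXN1 were lower in both siBANF1 libraries. KEAP1, HMOX1 and OSGIN1 were higher in both, and NQO1 and TXNRD1 were mixed. The share of all genes moving alike in both was not counted.

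The siCTCF libraries were set against ICM 3-4. HMOX1 was at 2623 and 4025 CPM, OSGIN1 at 481.5 and 881.7 CPM, NQO1 at 1945 and 2272 CPM, SRXN1 at 1080 and 1174 CPM, GCLM at 234.4 and 299.4 CPM and GCLC at 213.2 and 270.9 CPM, all overlapping with ICM 3 and 4. KEAP1, at 240.6 and 273.5 CPM, and NFE2L2, at 124.3 and 168.6 CPM, overlapped as well. None of the 9 genes was called, as was none of all genes (0%, with 125 genes at an unadjusted p under 0.05, none among the 9, and 0 called by DESeq2). TXNRD1 was the exception to the overlap, at 1597 and 1626 CPM below both ICM libraries, as were 9.55% of genes tested (log2 fold change -0.13 ± 0.24), and the fold changes of the 9 genes ran from -0.13 to 0.12. With siCTCF 1 set against ICM 3 and siCTCF 2 against ICM 4, GCLM and GCLC were higher in both siCTCF libraries. HMOX1 and TXNRD1 were lower in both, and the other genes were mixed. The share of all genes moving alike in both was not counted.

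The siHMGB2 libraries were set against WT because HMGB2 is a protein that inflachromene binds. The sample titles name no control siRNA for WT or ICM. In each knockdown comparison, an effect of siRNA treatment and one of the lost gene therefore cannot be told apart. In the siHMGB2 libraries HMOX1 lay above both WT libraries, where 19.7% of genes tested did, and the other 8 genes below both, where 29.3% did. NQO1 was at 380.3 and 348.9 CPM against 943.7 and 885.7 CPM in WT, the lowest ratio of the 9 genes, with a mean 2.51-fold lower. OSGIN1 was at 8.483 and 12.44 CPM against 24.4 and 23.26 CPM (2.28-fold lower), and SRXN1 at 78.64 and 84.38 CPM against 143.9 and 138.4 CPM (1.73-fold lower). TXNRD1 was at 549.5 and 549.1 CPM (1.67-fold lower than WT) and GCLM at 51.6 and 48.43 CPM (1.57-fold lower). HMOX1 was at 89.41 and 106.9 CPM, 1.85-fold higher than WT. The groups did not overlap for any of these 6 genes.

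With all 14 libraries in the fit, edgeR called none of the 9 genes, as it called none of all genes (0%, with 908 at an unadjusted p under 0.05, 1 of them among the 9). DESeq2 called 74 genes, none of them among the 9. The log2 fold changes in that fit were -1.27 ± 0.62 for NQO1, -1.13 ± 0.79 for OSGIN1, -0.74 ± 0.65 for SRXN1, -0.69 ± 0.25 for TXNRD1, -0.60 ± 0.34 for GCLM and 0.94 ± 0.87 for HMOX1. With the 4 WT and siHMGB2 libraries only, the same fold changes had smaller errors and 6 of the 9 genes were called. In that fit 5 genes were lower, where 4.74% of 15338 genes were, and HMOX1 was higher, where 6.14% were. NQO1 was at -1.26 ± 0.14 (edgeR adjusted p = 0.000112, range over the alternatives 1.58e-19 to 1) and HMOX1 at 0.95 ± 0.13 (edgeR adjusted p = 0.000503, range over the alternatives 4.37e-09 to 1). OSGIN1 (-1.12 ± 0.18), SRXN1 (-0.73 ± 0.13), TXNRD1 (-0.68 ± 0.14) and GCLM (-0.59 ± 0.12) were called. NFE2L2, at 254.1 and 187.4 CPM (-0.33 ± 0.15), KEAP1, at 60.27 and 67.14 CPM (-0.35 ± 0.13), and GCLC, at 71.72 and 62.89 CPM (-0.28 ± 0.13), were not. The fit to 4 libraries takes its spread from these libraries alone, with 2 residual degrees of freedom. Of the 10 fibroblast markers, 3 were called higher in it and 2 lower. Their sum, 27734 to 32740 CPM in siHMGB2, was above WT, with COL1A1 and COL1A2 its largest parts, while COL3A1 (1312 and 1419 CPM against 2867 and 3606 CPM) and PDGFRA (1099 and 876.9 CPM against 1555 and 1791 CPM) were lower. The part of these markers in the results was not tested.

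**Figure D4:**
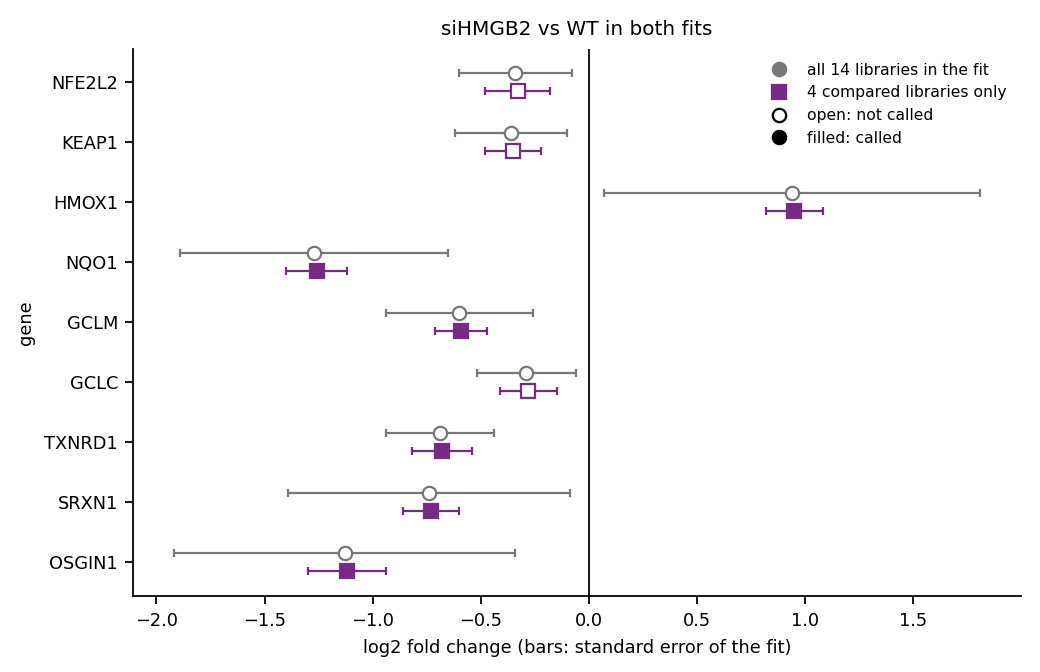
The x axis gives the log2 fold change of siHMGB2 over WT for each gene, with its standard error, from the fit to all 14 libraries (grey) and from the fit to the 4 compared libraries (purple); filled symbols were called. Both fits place HMOX1 near 0.95 and the other genes between -1.27 and -0.28, and only the purple fit calls 6 of them.

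The ICM 3-4 and siHMGB2 comparisons share the WT libraries, so their values are given side by side only. In log2 units over WT, NQO1 was at 0.95 in ICM 3-4 and -1.27 in siHMGB2, TXNRD1 at 0.69 and -0.69, GCLM at 1.42 and -0.60, SRXN1 at 2.71 and -0.74, and OSGIN1 at 4.64 and -1.13. HMOX1 was positive in both, at 5.76 and 0.94, and NFE2L2 negative in both, at -1.36 and -0.34.

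Another 46 genes of the pathway, in lists for NRF2 partners and regulators, glutathione, thioredoxin, NADPH supply, detoxification, and heme and iron, were read in the same fits, and 45 passed the filter. In ICM 3-4 against WT, 8 of them were called higher (14.3% of all genes) and 2 lower (16.0%), with a median log2 fold change of 0.36 against -0.02 over all genes, and 32 of the 46 lay above both WT libraries, where 42.6% of genes tested did. The counts were 5 higher and 1 lower of 13 detoxification genes, 2 higher of 7 heme and iron genes, 1 higher of 5 glutathione genes tested, 0 of 3 thioredoxin genes, 0 of 6 NADPH genes and 1 lower of 11 regulators. SQSTM1, 1 of these regulators, had only 7 to 53 reads in each library, so its values say little. Without ICM 4 the total fell to 2, without ICM 3, WT 1 or WT 2 to 3, and with the 4 compared libraries only it rose to 22, of which 19 were higher. SLC3A2, the heavy chain of the cystine importer, rose by 2.50 ± 0.75 in log2 units (edgeR adjusted p = 0.0295), from 233.6 and 198.3 CPM to 1420 and 1465 CPM. SLC7A11, the cystine transporter itself, was not called (0.15 ± 0.40; edgeR adjusted p = 0.798). EPHX1, the microsomal epoxide hydrolase, rose by 2.29 ± 0.25 (edgeR adjusted p = 0.000477). AKR1C2, an aldo-keto reductase, rose by 2.32 ± 0.78 (edgeR adjusted p = 0.0453), though AKR1C genes are near-identical copies whose reads the counting could split. NFE2L3, a relative of NRF2, fell by 4.58 on the log2 scale (SE 1.08; edgeR adjusted p = 0.012), from 19.1 and 22.96 CPM to 1.464 and 0.5913 CPM. Among 15 other antioxidant genes, outside these lists, 1 was called higher (14.3% of all genes) and 2 lower (16.0%).

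**Figure D5:**
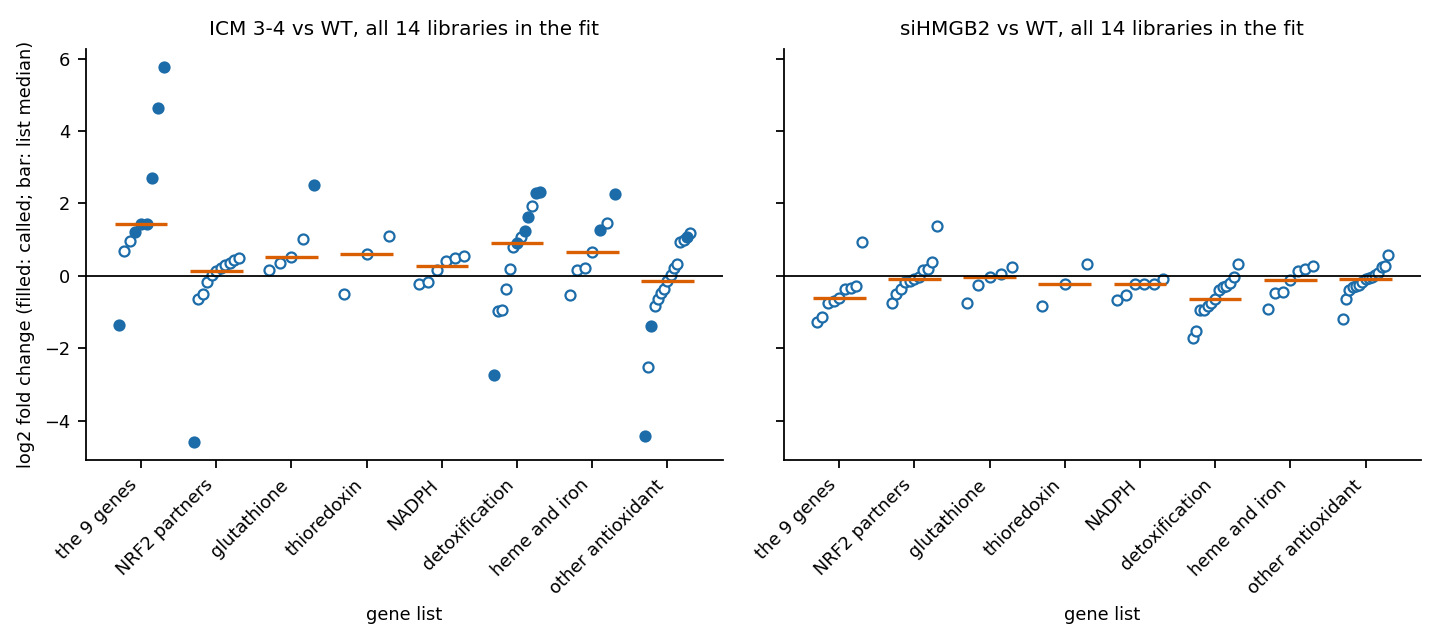
Each point is a gene of a list, placed by its log2 fold change over WT in ICM 3-4 (left) or siHMGB2 (right) from the fit to all 14 libraries, with filled points called and bars at the list medians. On the left the 9 genes have a median of 1.42 and the detoxification genes of 0.91, and on the right no point is filled and the medians of these 2 lists are -0.60 and -0.63.

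The fibroblast markers moved in the same comparison. All 10 were lower in ICM 3-4 than in WT by fold change, 7 of them called, among them PDGFRA (-6.41 ± 1.06) and COL3A1 (-4.88 ± 1.29), and their part in the results above was not tested. RNA of fewer fibroblast-like cells and less of these RNAs per cell cannot be told apart in bulk samples. No epithelial marker had a count in ICM 3 or 4, and the endothelial ones summed to at most 0.418 CPM there.

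In ICM 1-2 against WT, 1 of the 46 genes was called higher (6.63% of all genes) and 3 lower (6.87%). BACH1, the repressor that competes with NRF2, was at 186.7 and 203.1 CPM against 65.73 and 71.44 CPM in WT (log2 fold change 1.37 ± 0.31; edgeR adjusted p = 0.0189). BACH1 had 190.3 to 209.9 CPM in siSRRM2 and siBANF1, against 46.85 to 98.27 CPM in ICM 3-4 and siCTCF, so its high libraries were the 6 of the first set with the inflachromene label. The same 6 libraries had 3.12% to 5.98% of their counts in small structural RNAs, and the part of that in the BACH1 values was not tested. The ferritin heavy chain FTH1 was lower (-1.36 ± 0.35), as was COL1A1 among the fibroblast markers (-3.24 ± 0.70). FTH1 shares 62.4% of its exon bases with the opposite-strand gene BEST1 in GENCODE v29, so its counts are uncertain while the strand setting is not known. The total of 4 fell to 1 without WT 1 or WT 2 and to 0 with the 4 compared libraries only, and rose to 6 without ICM 1 and to 7 with DESeq2. From ICM 1-2 to ICM 3-4, 9 of the 46 were called higher (8.53% of all genes) and 2 lower (11.0%), with EPHX1 (3.03) and FTH1 (2.02) among the higher genes. Of all listed genes called with a mean of at least 10 CPM, NFE2L3 (-5.45), PDGFRA (-5.44) and SOD2 (-3.64), mitochondrial superoxide dismutase, were the lowest. That total of 11 fell to 7 without ICM 1, to 4 without ICM 3, to 6 without ICM 4 and to 1 with the 4 compared libraries only, and rose to 16 without ICM 2 and to 13 with DESeq2.

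In siHMGB2 against WT, none of the 46 was called in the fit to all libraries (1 at an unadjusted p under 0.05), and 28 lay below both WT libraries and 7 above both, where 29.3% and 19.7% of genes tested did. With the 4 compared libraries only, 10 were called lower (4.74% of all genes) and 1 higher (6.14%), with a median log2 fold change of -0.21 against 0.00 over all genes. The genes named next were chosen after their values were seen. In that fit AKR1C1 was at -1.71 ± 0.20, with 48.15 and 27.72 CPM against 140 and 119.3 CPM, and AKR1C2 at -1.51 ± 0.23. The ferritin light chain FTL was at -0.90 ± 0.15, thioredoxin (TXN) at -0.83 ± 0.14 and the cystine transporter SLC7A11 at -0.74 ± 0.13. NFE2L3 was the gene called higher (1.40 ± 0.14). In the comparisons of siBANF1 with ICM 1-2 and of siCTCF with ICM 3-4 none of the 46 was called or had an unadjusted p under 0.05, and in that of siSRRM2 none was called, 8 had one and DESeq2 called 4.

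Across the 14 libraries the 7 targets were positively correlated with each other, and NFE2L2 was negatively correlated with each of them, in part weakly. These correlations describe 14 libraries that share treatments and sets. On TMM-scaled log2 CPM, Pearson's r among the 7 targets was 0.74 to 0.97, with HMOX1 and OSGIN1 at 0.97 and GCLM and TXNRD1 at 0.97. KEAP1 had r between 0.65 and 0.88 with the targets. NFE2L2 had r between -0.65 (SRXN1) and -0.21 (GCLC) with the other 8. Among the 9202 genes averaging 10 CPM or more, the pattern most like that of HMOX1 was that of LIN37 (r = 0.991), and that most like OSGIN1 was TSPYL2 (0.988). For NQO1 it was CMAS (0.981), followed by AKR1C1 (0.962). For GCLM and for TXNRD1 it was TDP2 (0.979 and 0.970), and GCLM was the gene that came after it for TXNRD1 (0.968). SRXN1 was most like PIP4P1 (0.986), KEAP1 like BUD23 (0.985), GCLC like DVL2 (0.971) and NFE2L2 like TSPAN12 (0.934).

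The groups were ordered by their mean, and only neighbours in that order were compared for overlap. For NFE2L2, siSRRM2 stood above WT, WT above siHMGB2 and siHMGB2 above ICM 1-2 without overlap, while ICM 1-2, siCTCF, ICM 3-4 and siBANF1 overlapped in turn. For KEAP1, ICM 3-4 and siCTCF overlapped at the top, siSRRM2 stood below them, siBANF1, ICM 1-2 and WT overlapped in turn, and siHMGB2 was lowest. For HMOX1, WT had the lowest mean and siHMGB2 the next, and for NQO1, SRXN1 and OSGIN1 siHMGB2 had the lowest mean, each without overlap with its neighbour. Single libraries lay lower still: ICM 1 and siBANF1 1 were below both WT libraries in HMOX1 and below both siHMGB2 libraries in NQO1 and OSGIN1. TXNRD1 was lowest in siSRRM2, apart from siHMGB2, and GCLM and GCLC were lowest by mean in siSRRM2 and siBANF1, each overlapping with the group above it.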

How the data were processed

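RNA was sequenced from 14 IMR90 libraries (TruSeq kit, paired ends, NovaSeq6000, per the labels' protocols). The authors deposited raw read counts for each gene symbol, unpooled and with a file for each library. The submitters' processing notes name STAR 2.7.3a, HTSeq 0.12.4, DESeq2 1.36.0 and hg38 without roles. The annotation and strand setting are not given in the sources used here. The 5 lines of reads given to no gene (12.75% to 41.78% of a library's reads) entered neither library sizes nor tests. Libraries held 22336161 to 58257456 gene counts.

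CPM was computed from these totals. Genes were kept by filterByExpr on the 7 groups (19126 genes) and fitted with TMM scaling, and the main test was the quasi-likelihood test of edgeR 4.0.16 (limma 3.58.1, R 4.3.3), all 14 libraries in the fit with 1 mean per group (7 residual degrees of freedom), Benjamini-Hochberg adjustment over all genes and a threshold of 0.05. The SE of a log2 fold change is its size over the square root of F. The fit was also run on simulated counts with independent libraries and few changed genes, unlike these data, and no conclusion is drawn from that here. Beside the 9 genes, up to 3 called genes at each end with a mean of at least 10 CPM were named per comparison from the other lists, of which 1 gene is not reported here. The genes and lists were chosen with earlier results of these data known. Alternatives were scaling by RLE or by total counts, other filters, DESeq2 1.42.0, protein-coding genes, compared libraries only, a replicate block, other ICM libraries and leaving out each library. Chromosome positions and promoters are from RefSeq (GRCh38.p14; 8 of the 9 genes had a promoter window), exon lengths and overlaps from GENCODE v29. Tables and figures used Python 3.11.15, pandas 2.3.3, matplotlib 3.10.9, scipy 1.17.1 and numpy 2.4.6.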

Additional observations from a re-analysis of the deposited data

Results flagged for a closer look

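Among the 4 ICM libraries, NFE2L2 in ICM 3 (99.35 CPM) stood apart from ICM 1, 2 and 4 (162 to 170.9 CPM): the gap to the nearest library was 0.875 of the whole range, above the 95% critical value of Dixon's test for 4 samples. Chance flags about 1 in 20 such groups, and 9 genes were looked at.

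The change from WT differed between the ICM sets for 6 genes, tested as the contrast of ICM 3-4 with ICM 1-2 in the fit to all libraries. The change in ICM 3-4 exceeded that in ICM 1-2 by 4.88 log2 units for OSGIN1, 4.45 for HMOX1, 1.95 for GCLM, 1.62 for GCLC, 1.32 for KEAP1 and 1.31 for TXNRD1. None of these was called with the 4 compared libraries only.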

How the results depend on the processing

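Of 781 refits of 60 fold changes, 665 kept their direction and side of the threshold, 65 lost the call, 49 gained one and 2 reversed. The 2 were HMOX1 and SRXN1 in ICM 1-2 against WT, at -0.69 and -0.50 without ICM 2. Leaving out 1 library at a time, their ranges were -0.69 to 2.11 and -0.50 to 1.61. For ICM 1-2 against WT the number of the 9 genes called was 0 with scaling by total counts, with protein-coding genes only, with the compared libraries only, with a replicate block on these, and without any 1 library (0 to 0), and 2 with DESeq2. For ICM 3-4 against WT it was 4 to 6 without 1 library. For ICM 3-4 against ICM 1-2 it was 0 with the compared libraries only and 4 to 8 without 1 library. For siHMGB2 against WT it was 6 with the compared libraries only, 6 with a replicate block on these, and 1 in a fit to WT, siHMGB2, ICM 3-4 and siCTCF, added after the data were seen. For siSRRM2 it was 1 with DESeq2 and 8 with ICM 3-4 as controls, and for siBANF1 6 with ICM 3-4 as controls. The cause was not tested.

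Replicate numbers were not taken as pairs in the main fit. Yet the median chi-square was 12.2 for ICM 1 with siBANF1 1 and 3.32 for ICM 2 with siBANF1 2, against 50.4 and 49.6 within these groups. It was 2.7 for ICM 3 with siCTCF 1 and 1.75 for ICM 4 with siCTCF 2, against 10.2 and 7.23 within these groups. The main fit and the overlap of groups take no account of this likeness. Same-numbered deviations correlated at 0.18 (WT, siHMGB2), 0.11 (ICM 1-2, siSRRM2), 0.87 (ICM 1-2, siBANF1) and 0.86 (ICM 3-4, siCTCF). The last sets ICM 3 and 4 beside siCTCF 1 and 2, as does the block, an order the labels do not give. With a replicate block and all 14 libraries, the 9 genes gave 1, 8 and 8 calls in the 3 ICM comparisons and 0 in each knockdown. ICM 3-4 share no number with WT or ICM 1-2, so the block on the compared libraries only was not run for these.

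Over all genes, calls for ICM 1-2 against WT numbered 2582, but 0 with the compared libraries only, 1183 with a block on these, 4222 with a block and all libraries, 4010 with DESeq2, 3883 without a filter, 1452 with protein-coding genes only and 512 to 3483 without 1 library. For ICM 3-4 against WT they were 5797 and 1806 to 2468 without 1 library, 9465 in the 8-library fit; scaling by total counts split them into 3448 higher and 2449 lower, against 2732 and 3065, and moved the median of all genes from -0.02 to 0.18. For ICM 3-4 against ICM 1-2 they were 3738, 136 with the compared libraries only, 5644 with the block and 1090 to 5889 without 1 library. For siHMGB2 they were 0, 1668 with the compared libraries only, 2443 with the block on these and 94 without a filter, 74 with DESeq2 and 49 in the 8-library fit. For siSRRM2 they were 34, 814 without a filter, 727 with DESeq2, 127 with the block, 58 with protein-coding genes only, 54 with a minimum of 1 CPM, 1 with scaling by total counts, 1 to 51 without 1 library and 0 with the compared libraries only. For siBANF1 they were 0, 161 without a filter, 24 with DESeq2, 10 without ICM 2 and 54 without siBANF1 2. For siCTCF they were 0, and 4 with the block on the compared libraries only. All tests rest on 2 libraries a group, and the effect of read depth on them was not tested.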
